A study of Saccharomyces cerevisiae with 96 samples.

Results

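The genes described here encode 9 carriers of the mitochondrial inner membrane in Saccharomyces cerevisiae, of 6701 genes in the deposited table. They were taken by gene identifier: MIR1, DIC1, CTP1, OAC1, YHM2, CRC1, ODC1, ODC2 and ORT1. All 9 were among the 5129 genes tested, whose mean level was 10 RPM or more (RPM, the reads of a gene after scaling every sample to the same total). The study grew 12 wild type strains, and a population evolved from each during about 300 generations on xylulose, on rich medium (YP) with glucose or with xylulose. The strains were numbered 1 YPS1009, 2 T73, 3 T7, 4 Y12, 5 YJM269, 6 PW5, 7 CLIB215, 8 CLIB324, 9 CBS7960, 10 EC1118, 11 BY4743 and 12 SK1. The xylulose medium was made by converting xylose and so also held xylose, and the evolved samples were populations, not single clones. Each of the 96 samples was a bulk culture, in which fewer cells expressing a gene and less RNA per cell cannot be told apart. The table gives 1 column for each strain and medium, the authors' mean of 2 repeats, so the 48 columns fall into 4 groups of 12 (wild type or evolved, on glucose or xylulose) and the spread reported below is the spread between strains.

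Carriers of this family pass metabolites across an inner membrane that small ions and acids do not cross on their own. MIR1 imports the phosphate from which ATP is made. ODC1 and ODC2 exchange oxodicarboxylates such as oxoglutarate, the carbon skeleton of glutamate, and oxoadipate, an intermediate of lysine synthesis. ORT1 exports ornithine for arginine synthesis. CTP1 carries citrate, DIC1 carries malate and succinate, and YHM2 exchanges citrate for oxoglutarate. OAC1 imports oxaloacetate and also passes isopropylmalate, an intermediate of leucine synthesis, and CRC1 carries carnitine and acetylcarnitine. The carrier signature (a proline followed at fixed spacing by an acidic and a basic residue) was counted in the predicted proteins. At least 2 copies stood in 8 of the 9, and OAC1 held 1, while 4.715% of 6002 predicted proteins held at least 2. Those are 283 proteins, more than the 9 carriers and the 26 other family members listed. The pattern alone therefore does not show membership. The closest pair was ODC1 and ODC2, identical at 64.03% of 303 aligned residues, and the next pair, CRC1 and ORT1, was identical at 33.3%. No stretch of 50 bases, the read length, in any of the 9 coding sequences occurred elsewhere in the R64 reference genome (strain S288c). The genomes of the strains studied were not read, so differences between them and the reference were not checked. Bases beyond the coding sequences, from which reads may also come, were not checked.

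One doubt about the labels comes before the results. Among 59 genes whose level was typical of a strain on both sugars, each of the 8 evolved populations numbered 5 to 12 resembled most closely the wild type 4 numbers away (5 with 9, 6 with 10, 7 with 11, 8 with 12), with a mean correlation of 0.788 against -0.12 for the same number. Evolved populations 1 to 4 resembled their own wild type (0.73). Results that set evolved against wild type are therefore given for the numbers as labelled and for the exchanged numbers. Means over the 12 strains are the same under both, and their errors are not. Ratios of xylulose to glucose within the wild type strains or within the evolved populations do not depend on this pairing. Genes of chromosome XV, which carries CRC1, ODC2 and ORT1, also stood higher than other genes in some evolved populations. Here each population was set against the mean of the 12 wild type strains on the same sugar, so no pairing of numbers entered. On xylulose the median log2 ratio of chromosome XV genes to that mean, less the median of all genes tested, was over 0.3 in evolved populations 1 (0.42), 3 (0.34), 8 (0.47) and 11 (0.43). It was over 0.3 on both sugars in population 3 alone (0.33 on glucose). Chromosome XII, which carries DIC1, was over 0.3 in population 1 on xylulose (0.33) and in population 3 on glucose (0.34). Chromosome XVI, which carries ODC1, stood at 0.28 in population 6 on xylulose. The part of these shifts in the ratios of DIC1 and ODC1 was not tested.

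Stretches upstream of 5 of the genes are shown with matches to short patterns, searched for regulators of the pathways these carriers serve. Every carrier held a match to some pattern, so the 5 shown are examples. The windows were read from the R64 genome, 5′ to 3′ on the strand of the gene, with each match in capitals. Letters were searched on both strands in the 500 bases before the start codon of 6000 genes. TGACTC (Gcn4, general control of amino acid synthesis) was found in 12.65% of these promoters and in 6 of the 9 carriers (MIR1, CTP1, OAC1, CRC1, ODC2 and ORT1). Of these, MIR1 and CRC1 are not among the stretches shown. TCCNNNGGA (Lys14, lysine synthesis) was found in 5.9% and in CTP1 and ODC2, and CCGNNNNCGG (Leu3, leucine synthesis) in 3.28% and in MIR1, OAC1 and ODC1. GGTCAC (Rtg1/3, the retrograde response) was found in 9.52% and in DIC1, OAC1, CRC1 and ODC1, and CCAAT (Hap2/3/4/5, respiratory genes) in 62.4% and in 6 carriers. No 2 of the 23 matches overlapped. The search took any base at N, so a match can differ from the site of a regulator at those positions. A match is a description of the letters and not a shown binding site.
ORT1, chrXV:570938-571087, minus strand, 150 bases from base 280 before the start codon, with Gcn4 and Hap letters: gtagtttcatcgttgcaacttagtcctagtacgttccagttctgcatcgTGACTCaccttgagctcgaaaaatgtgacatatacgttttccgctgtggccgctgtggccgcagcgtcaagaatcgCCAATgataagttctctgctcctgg
ODC2, chrXV:758050-758199, plus strand, 150 bases from base 280, with Lys14 and Gcn4 letters: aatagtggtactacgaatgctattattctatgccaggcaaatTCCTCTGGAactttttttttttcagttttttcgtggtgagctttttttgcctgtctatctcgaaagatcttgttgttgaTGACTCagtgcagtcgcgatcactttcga
CTP1, chrII:784703-784852, minus strand, 150 bases from base 280, with Gcn4 and Lys14 letters: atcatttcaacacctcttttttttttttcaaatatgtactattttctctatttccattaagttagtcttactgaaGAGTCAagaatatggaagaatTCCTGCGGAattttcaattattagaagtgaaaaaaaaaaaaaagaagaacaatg
OAC1, chrXI:216844-217063, plus strand, 220 bases from base 500, with Leu3, Hap, Gcn4 and Rtg1/3 letters: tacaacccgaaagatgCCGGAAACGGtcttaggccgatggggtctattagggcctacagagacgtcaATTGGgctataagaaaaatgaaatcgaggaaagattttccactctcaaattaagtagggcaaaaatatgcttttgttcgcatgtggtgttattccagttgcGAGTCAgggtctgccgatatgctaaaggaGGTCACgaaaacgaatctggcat
ODC1, chrXVI:299844-300003, minus strand, 160 bases from base 500, with Leu3 and Hap letters: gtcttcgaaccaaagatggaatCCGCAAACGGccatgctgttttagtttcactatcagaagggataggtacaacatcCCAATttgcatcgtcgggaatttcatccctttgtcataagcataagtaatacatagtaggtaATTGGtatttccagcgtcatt

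On xylulose, most of these carriers stood higher than on glucose in the wild type strains. The log2 xylulose/glucose ratio passed the test (limma on 12 paired ratios, Benjamini-Hochberg adjusted p under 0.05 over 5129 genes) as higher for 8 of the 9 and as lower for 0. Over all genes tested 30.4% were called higher and 9.42% lower, and the median log2 ratio was 1.96 for the carriers and 0.31 for all genes. With another scaling of the columns (median of ratios) the median of all genes moved to 0.13, the calls over all genes moved from 1561 higher and 483 lower to 1107 and 688, and the same 8 carriers were called. The largest ratio was that of ODC1 (3.43) and the smallest that of OAC1 (0.60, adjusted p = 0.0581), the carrier that did not pass.

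In the evolved populations fewer of the carriers were called. The ratio passed as higher for 5 of the 9 (MIR1, YHM2, CRC1, ODC1 and ODC2) and as lower for 0, where 24.1% of all genes were called higher and 15.6% lower, and the median ratio was 0.49 for the carriers and 0.08 for all genes. With median-of-ratios scaling the calls over all genes moved from 1235 higher and 801 lower to 1019 and 1016, and YHM2 was no longer called. The levels of each carrier in the 48 columns are described below by the metabolite it moves.

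**Figure D1:**
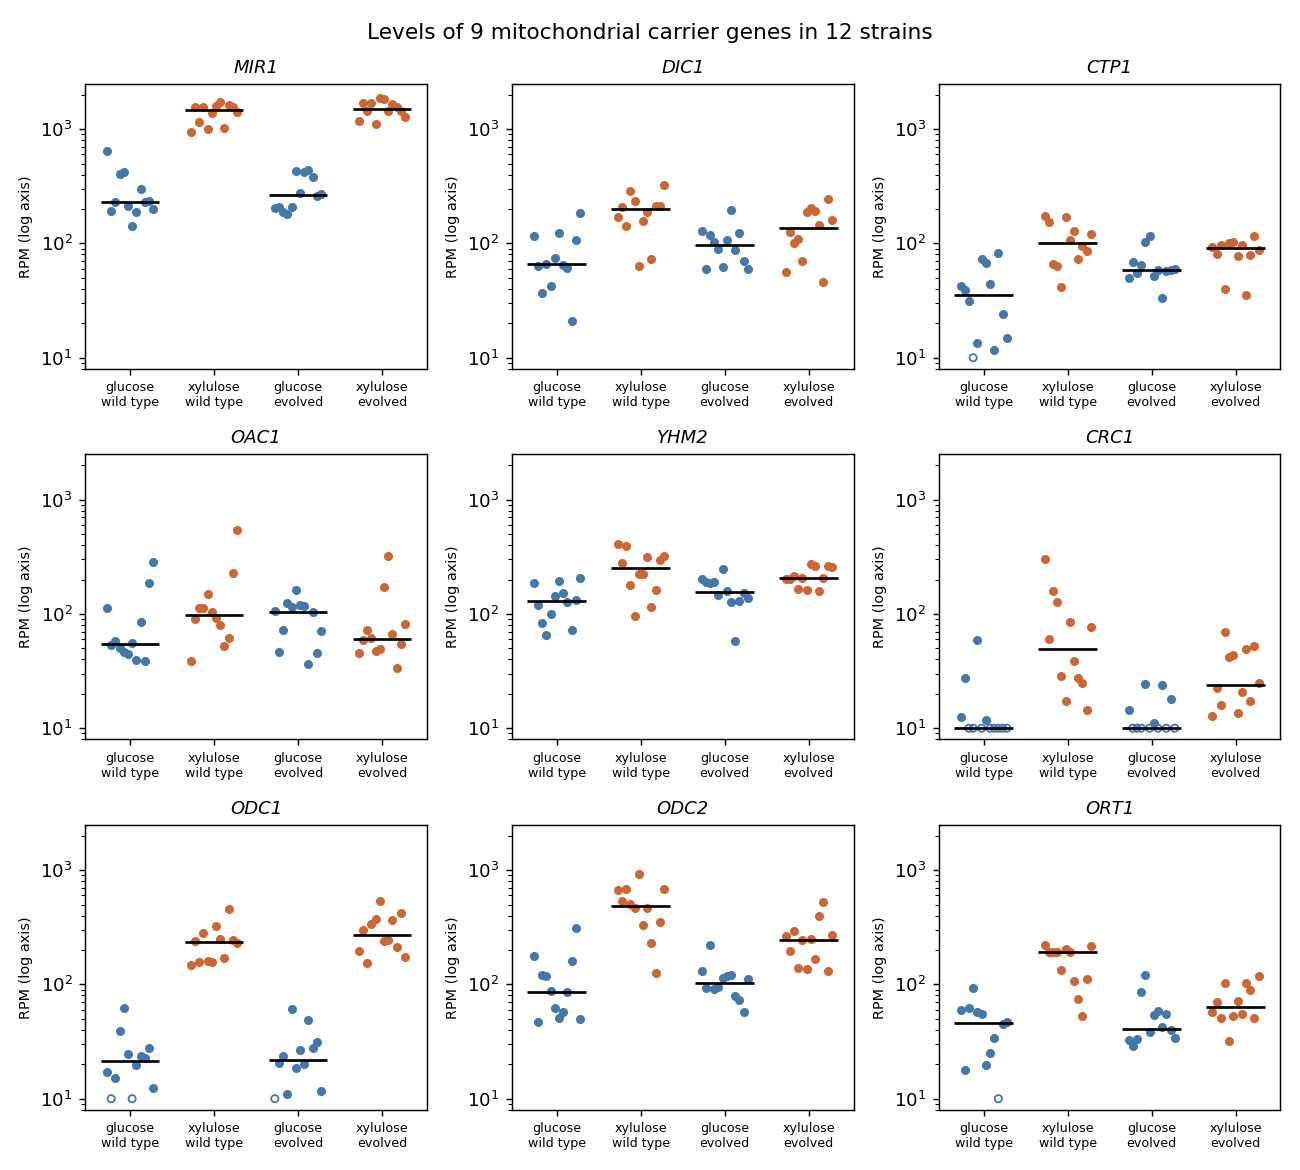
Level of each carrier gene in RPM (log axis) for the 12 wild type strains and the 12 evolved populations on glucose (blue) and xylulose (orange). Each point is a column, the authors' mean of 2 repeats; open points are blanks, below 10 RPM and drawn at 10, and black lines are medians over the 12 with blanks at 10. MIR1 and ODC1 show no overlap between the sugars (the share of all genes was not counted), and CRC1 is blank in 8 wild type and 7 evolved columns on glucose.

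MIR1 (YJR077C, chrX:577255-578190), the phosphate carrier, ranged over 142 to 641 RPM in the wild type strains on glucose, with a median of 229, and over 949 to 1710 on xylulose, with a median of 1475. After evolution it ranged over 181 to 437 RPM on glucose, median 266, and over 1104 to 1859 on xylulose, median 1514. The 24 values on each sugar did not overlap with those on the other, and the highest value on glucose was that of wild type strain 1. The share of all genes without such overlap was not counted, here or for ODC1 below. The log2 ratio was 2.39 (SE 0.20, adjusted p = 8.66e-09, limma) in the wild type strains and 2.45 (SE 0.13, adjusted p = 1.34e-11) in the evolved populations, in 12 of 12 strains each. The genes with the most similar pattern over the 48 columns were ATP18, a subunit of ATP synthase (Pearson r = 0.974), COX9, a subunit of cytochrome oxidase (0.965), and YGL188C (0.960). Columns on the same sugar share the difference between the sugars, so such correlations describe the pattern and are given without a test. ATP synthase, which uses the phosphate that MIR1 imports, had 14 of 14 listed subunits called higher on xylulose in both the wild type strains (median log2 ratio 1.74, beside 30.4% of all genes called) and the evolved populations (1.73, beside 24.1%). Its largest ratios were those of ATP16 in the wild type strains (1.97) and of ATP14 in the evolved populations (2.09).

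ODC1 (YPL134C, chrXVI:298571-299503) and ODC2 (YOR222W, chrXV:758330-759253) encode the related oxodicarboxylate carriers. ODC1 on glucose was blank in 2 wild type strains and reached 62.5 RPM, with a median of 21.3, and on xylulose it ranged over 147 to 458, with a median of 236. After evolution it was blank in 1 population and reached 60.4 RPM on glucose, median 22.0, and ranged over 155 to 542 on xylulose, median 273. No value on glucose came near those on xylulose, and the highest value on xylulose was that of wild type strain 10 before evolution and of population 6 after it. Its log2 ratio was 3.43 (SE 0.27, adjusted p = 4.32e-09) in the wild type strains, the 25th largest change in either direction of the 5129 genes, and 3.63 (SE 0.21, adjusted p = 2.34e-11) in the evolved populations. Blanks were set to 10 RPM, so the ratio of a gene that was blank on glucose is on the low side. The rank was taken with this floor and depends on it, for ODC1 and for other genes with blanks. With blanks left missing, the ratios of ODC1 were 3.15 and 3.57. The most similar patterns to ODC1 were those of SDH4, a subunit of succinate dehydrogenase (r = 0.949), ATP1, a subunit of ATP synthase (0.949), and YGL188C (0.940).

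ODC2 on glucose ranged over 46.5 to 309 RPM in the wild type strains, median 85.8, and on xylulose over 127 to 930, median 486. Evolved values ranged over 57.2 to 219 RPM on glucose, median 104, and over 131.2 to 521 on xylulose, median 245. The sugars overlapped in both sets, and wild type strains 10 and 11 stood apart with log2 ratios of -0.34 and 0.19, where the other 10 strains lay between 1.44 and 3.91. The mean ratio was 2.26 (SE 0.30, adjusted p = 4.73e-06, higher in 11 of 12) in the wild type strains and 1.16 (SE 0.19, adjusted p = 4.37e-05, higher in 12 of 12) in the evolved populations. The genes most similar to ODC2 over the 48 columns were AAT2, an aspartate aminotransferase (r = 0.891), HOM3, aspartate kinase (0.867), and GGC1, the mitochondrial GTP/GDP carrier (0.853). The most similar patterns thus differed between the paralogs, and ODC1 and ODC2 correlated with each other at 0.65, against 0.94 for MIR1 and ODC1, the most similar of the 36 pairs of carriers.

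The levels of the paralogs were also set side by side. Per kilobase of coding sequence, ODC2 on glucose stood above ODC1 in 12 of 12 wild type strains, with medians of 92.9 and 22.9 RPM per kilobase, and in 12 of 12 evolved populations, with medians of 112 and 23.6. On xylulose ODC2 stood above ODC1 in 11 of 12 wild type strains (medians 526 and 253 RPM per kilobase) and in 6 of 12 evolved populations (medians 265 and 292). Division by length takes reads to cover the whole coding sequence, which RNA fragmented before polyA selection may not give. The proteins of ODC1 and ODC2 are of similar length (310 and 307 residues). The log2 ratio of ODC2 minus that of ODC1 was -1.17 in the wild type strains (SD 1.61, n = 12, above 0 in 2). Flipping the signs of the 12 differences in all possible ways (exact permutation test, two-sided) gave p = 0.0239, or 0.0553 after adjustment over the 5 comparisons. In the evolved populations the difference was -2.47 (SD 1.35, n = 12, above 0 in 0), for which that exact test gave its smallest possible p, 0.000488 (adjusted p = 0.00244). Leaving out strain 5 or 6 brought the wild type difference under the threshold (down to adjusted p = 0.0195), and no strain left out changed the call in the evolved populations.

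**Figure D2:**
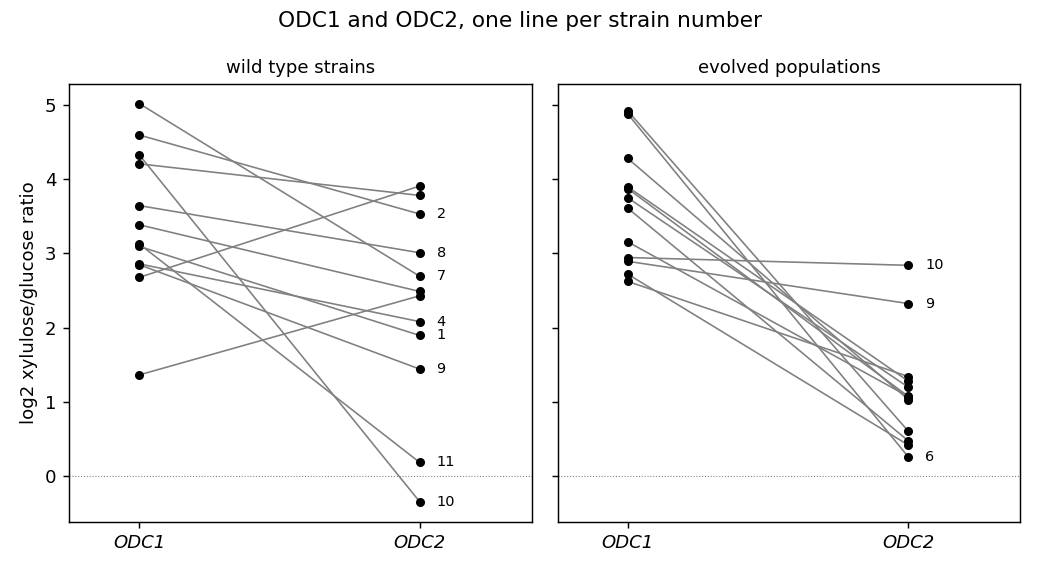
Log2 xylulose/glucose ratio of ODC1 and ODC2 in the wild type strains (left) and the evolved populations (right); each line joins the values of 1 strain number, with blanks at 10 RPM, and numbers are printed where points stand clear of each other. The line falls from ODC1 to ODC2 in 10 of 12 wild type strains, all but 5 and 6, and in 12 of 12 evolved populations.

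ORT1 (YOR130C, chrXV:569929-570807), the ornithine carrier, was blank on glucose in 1 wild type strain and reached 92.4 RPM, median 46.0. On xylulose the wild type strains ranged over 52.4 to 219 RPM, with a median of 192. Its evolved levels ranged over 28.9 to 121 RPM on glucose, median 41.0, and over 31.7 to 119 on xylulose, median 63.5. After evolution the 2 sugars overlapped over most of their range, and 8 of the 12 wild type strains on xylulose stood above the highest of the evolved populations on that sugar. The log2 ratio was 1.96 (SE 0.24, adjusted p = 1.37e-06, higher in 12 of 12) in the wild type strains and 0.49 (SE 0.24, adjusted p = 0.109, higher in 10 of 12) in the evolved populations, where it passed without population 5 (adjusted p = 0.00572). The change of the ratio with evolution, tested on the difference itself, was -1.47 (SE 0.31, adjusted p = 0.00541 by limma, lower in 11 of 12). With the numbers exchanged its adjusted p was 0.00283. The genes most similar to ORT1 over the 48 columns were GGC1 (r = 0.824), LEU4, an isopropylmalate synthase (0.819), and YHI9 (0.819).

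Arginine synthesis uses the ornithine that ORT1 exports. On xylulose 8 of 8 arginine synthesis genes were called higher than on glucose in the wild type strains (median log2 ratio 2.76, largest ARG1, argininosuccinate synthase, 3.52) and 7 of 8 in the evolved populations (median 1.02, ARG1 2.01). Over all genes 30.4% and 24.1% were called higher. The ratio was called lower after evolution for 4 of the 8 (4.95% of all genes), and for 6 of the 8 with the numbers exchanged (7.35%). ARG4, argininosuccinate lyase, stood at -2.64 (SE 0.40, adjusted p = 0.000211 as labelled and 3.24e-05 exchanged).

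CTP1 (YBR291C, chrII:783673-784572), the citrate carrier, was blank on glucose in 1 wild type strain and reached 82.2 RPM, median 35.3, and ranged over 41.2 to 175 on xylulose, median 101. Evolved levels of CTP1 ranged over 33.0 to 116 RPM on glucose, median 59.0, and over 35.1 to 116 on xylulose, median 90.4. The 2 sugars overlapped in both sets, and after evolution they spanned nearly the same range. The log2 ratio was 1.71 (SE 0.26, adjusted p = 2.04e-05, higher in 12 of 12) in the wild type strains and 0.37 (SE 0.17, adjusted p = 0.0845, higher in 9 of 12) in the evolved populations, where it passed without population 4 (adjusted p = 0.0268). The change of the ratio was -1.34 (SE 0.32, adjusted p = 0.0144, lower in 11 of 12), and with the numbers exchanged its adjusted p was 0.00809. Evolved against wild type, the mean log2 ratio of CTP1 was 1.04 on glucose and -0.30 on xylulose. Neither passed by limma (adjusted p = 0.0957 and 0.508 as labelled, 0.0627 and 0.247 exchanged). Some wild type values on glucose lay near the floor of 10 RPM (11.7 in strain 9). The most similar patterns were LYS9, a saccharopine dehydrogenase of lysine synthesis (r = 0.691), ALA1, alanyl-tRNA synthetase (0.681), and LYS20, a homocitrate synthase (0.667).

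The lysine genes, whose pathway starts from oxoglutarate, had 7 of 7 members called higher on xylulose in the wild type strains (median log2 ratio 1.91, largest LYS20, 3.04) and 5 of 7 in the evolved populations (median 0.54, largest LYS2, aminoadipate reductase, 1.27). The shares of all genes called higher were 30.4% and 24.1%. The ratio was called lower after evolution for 5 of 7 (4.95% of all genes), and for 6 of 7 with the numbers exchanged (7.35%). LYS1, saccharopine dehydrogenase, stood at -2.58 (SE 0.41, adjusted p = 0.00047 as labelled and 3.76e-06 exchanged).

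DIC1 (YLR348C, chrXII:826977-827873), the dicarboxylate carrier, ranged over 21.0 to 184 RPM on glucose in the wild type strains, median 65.4, and over 63.2 to 325 on xylulose, median 199. Evolved levels of DIC1 ranged over 59.4 to 197 RPM on glucose, median 96.3, and over 46.0 to 242 on xylulose, median 135. The sugars overlapped in both sets. Its log2 ratio was 1.32 (SE 0.27, adjusted p = 0.000449, higher in 11 of 12) in the wild type strains, from -0.25 in strain 6 to 3.33 in strain 10, and 0.37 (SE 0.25, adjusted p = 0.256, higher in 7 of 12) in the evolved populations. The change of the ratio was -0.96 (SE 0.43, adjusted p = 0.193, lower in 7 of 12) as labelled. With the numbers exchanged the SD between strains went from 1.89 to 1.05, the ratio was lower in 11 of 12 and the adjusted p was 0.0308. The most similar patterns were YGL114W (r = 0.723), ALD6, the cytosolic acetaldehyde dehydrogenase (0.695), and LEU4 (0.676).

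YHM2 (YMR241W, chrXIII:751961-752905), the citrate and oxoglutarate carrier, ranged over 65.6 to 206 RPM on glucose in the wild type strains, median 130, and over 96.2 to 408 on xylulose, median 252. Evolved levels of YHM2 ranged over 57.7 to 246 RPM on glucose, median 155, and over 159 to 274 on xylulose, median 205. The sugars overlapped, and on xylulose the evolved populations lay within the range of the wild type strains. The ratio was 0.89 (SE 0.19, adjusted p = 0.000915, higher in 10 of 12) in the wild type strains and 0.47 (SE 0.16, adjusted p = 0.0225, higher in 10 of 12) in the evolved populations. The evolved call was lost with median-of-ratios scaling (adjusted p = 0.0559) and when population 8 or 9 was left out (up to adjusted p = 0.0560). The most similar patterns were TRM1, a tRNA methyltransferase (r = 0.705), FSF1, a mitochondrial carrier-like protein (0.675), and COT1, a vacuolar metal transporter (0.673).

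OAC1 (YKL120W, chrXI:217344-218318), the carrier of oxaloacetate and isopropylmalate, had a wide spread between strains. On glucose the wild type strains ranged over 38.5 to 283 RPM, median 54.5, and on xylulose over 38.9 to 541, median 98.5. The highest value on both sugars was that of strain 12, with strain 11 next at 187 and 227 RPM. In the evolved populations it ranged over 36.1 to 163 RPM on glucose, median 104, and over 33.3 to 322 on xylulose, median 60.4, where the highest were populations 8 (322) and 7 (171), the exchanged partners of 12 and 11. The ratio of xylulose to glucose did not pass the test in the wild type strains (0.60, SE 0.25, adjusted p = 0.0581, higher in 10 of 12) or in the evolved populations (-0.26, SE 0.25, adjusted p = 0.442, higher in 7 of 12). The wild type ratio passed in 2 of the 12 fits that left out a strain, those without strain 1 or 9 (down to adjusted p = 0.00546), the strains whose ratios were below 0 (-1.54 and -0.70). The SD between wild type strains on xylulose, 1.00 on the log2 scale, was larger than that of 96.6% of the 4146 genes with a value in every such column.

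The patterns most similar to OAC1 were those of 2 genes of branched-chain amino acid synthesis, LEU1, isopropylmalate isomerase (r = 0.812), and BAT1, the mitochondrial branched-chain aminotransferase (0.750), followed by ISU2, an iron-sulfur scaffold (0.630). With the other carriers OAC1 correlated between -0.04 (CRC1) and 0.56 (DIC1). Of the 6 leucine synthesis genes, 5 were called higher on xylulose in the wild type strains (median log2 ratio 0.76, largest LEU4, 2.76) and 2 in the evolved populations (median 0.22, largest LEU9, the second isopropylmalate synthase, 1.46). Of all genes 30.4% and 24.1% were called higher. The ratio was called lower after evolution for 2 of 6 under both pairings (4.95% of all genes as labelled and 7.35% exchanged), with LEU4 at -1.34 (SE 0.23, adjusted p = 0.000875 as labelled and 0.000174 exchanged).

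CRC1 (YOR100C, chrXV:513295-514278), the carnitine carrier, was blank on glucose in 8 of 12 wild type strains with a highest value of 58.7 (strain 5) and in 7 evolved populations with a highest value of 24.2. On xylulose it had a value in every column, 14.6 to 305 RPM in the wild type strains (median 49.3) and 12.9 to 69.1 in the evolved populations (median 23.8). The highest wild type value on xylulose, 305 RPM, was that of strain 1, and evolved population 1 had the lowest evolved value. With blanks at 10 RPM the log2 ratio was 2.02 (SE 0.39, adjusted p = 0.000345, higher in 11 of 12) in the wild type strains and 1.12 (SE 0.23, adjusted p = 0.000489, higher in 11 of 12) in the evolved populations. With blanks left missing the ratios were 1.88 (adjusted p = 0.0481) and 0.70 (adjusted p = 0.0972), from the 4 wild type strains and 5 evolved populations with a value on both sugars, so the evolved call was lost with fewer populations and no floor. On xylulose the SD between wild type strains was 1.36 on the log2 scale, larger than that of 99.0% of the 4146 genes. The genes most like CRC1 were MLS1, malate synthase (r = 0.745), ECM13 (0.741), and ICL1, isocitrate lyase (0.731), the first and last being enzymes of the glyoxylate cycle. Of 4 genes for carnitine acetyltransferases and the peroxisomal citrate synthase CIT2, 3 were called higher on xylulose in the wild type strains (30.4% of all genes), with YAT2, a carnitine acetyltransferase, at 1.98. In the evolved populations 2 were called higher (24.1% of all genes), and CIT2 was lower (15.6% of all genes) at -1.35 (SE 0.29, adjusted p = 0.000861).

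The change of the xylulose/glucose ratio with evolution was tested for all 9 carriers, with the same wild type and evolved columns as above. The median change was -0.90 for the carriers and -0.20 for all genes. As labelled it passed as lower for 2 of the 9, CTP1 and ORT1, where 4.95% of all genes were called lower and 0.487% higher, and with the numbers exchanged for 4 of the 9, where 7.35% of all genes were called lower. The 2 added were DIC1 and ODC2 (-1.10, SE 0.42 and adjusted p = 0.126 as labelled, SE 0.29 and adjusted p = 0.0171 exchanged). As labelled, leaving out strain 10 also brought ODC2 under the threshold (adjusted p = 0.011). CTP1 and ORT1 were called in each of the 12 fits that left out a strain, with adjusted p up to 0.0323 and 0.0188. As labelled, neither passed by limma without populations 1, 3, 8 and 11, those with raised chromosome XV on xylulose. Over the 8 strains left, CTP1 stood at -1.63 (adjusted p = 0.0825) and ORT1 at -1.54 (adjusted p = 0.0893), and neither change was smaller in size. Fits that left out strains were run only as labelled, so wild types 8 and 11 were dropped along with those populations. MIR1 and ODC1 had changes of 0.07 (SE 0.25, adjusted p = 0.916 as labelled and 0.900 exchanged) and 0.20 (SE 0.34, adjusted p = 0.80 as labelled and 0.740 exchanged). The shift between ODC2 and ODC1 changed with evolution by -1.30, with SD 2.59 and adjusted p = 0.140 as labelled (exact permutation of signs). Leaving out strain 10 brought it under the threshold as labelled (-1.83, adjusted p = 0.0146). With the numbers exchanged the SD was 1.28 (n = 12, p = 0.00586 by the exact permutation of signs, 0.00879 adjusted).

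**Figure D3:**
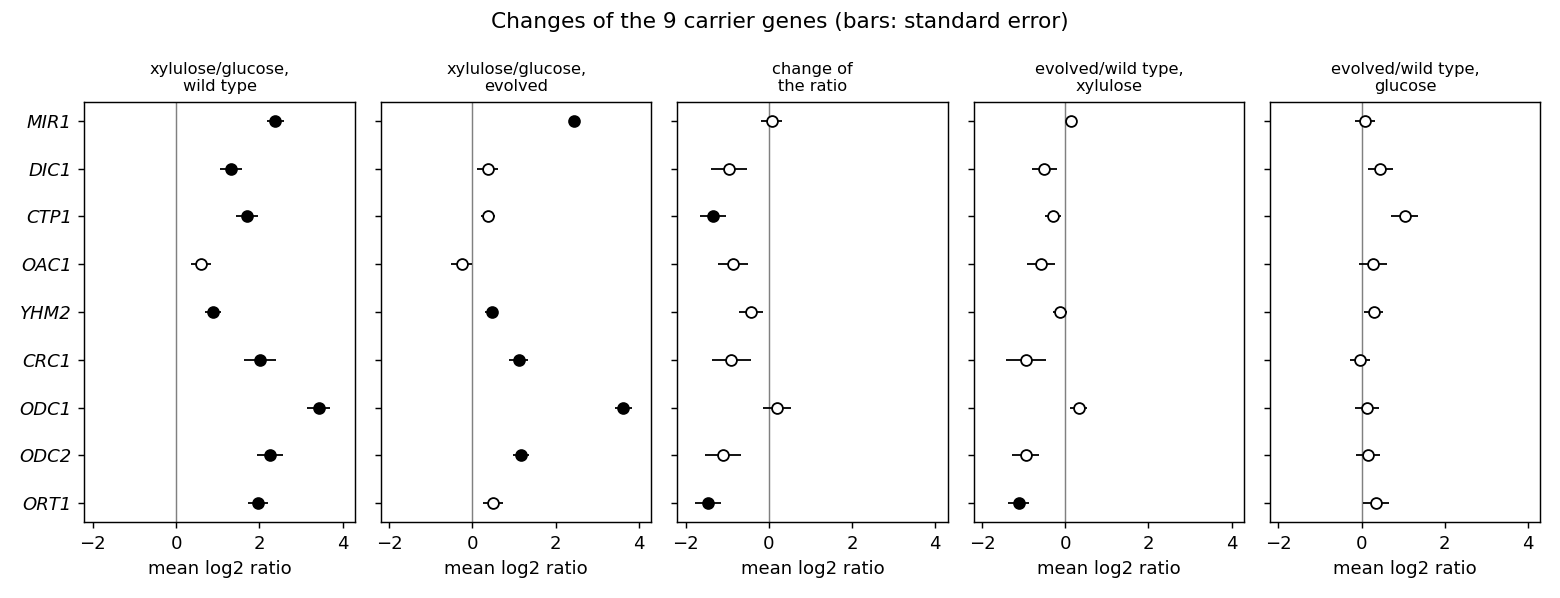
Mean log2 ratio over 12 strain numbers of each carrier in the 5 comparisons, as labelled, with bars for the standard error; filled points passed the test (limma adjusted p under 0.05). Filled points number 8 and 5 in the xylulose/glucose panels, 2 for the change of the ratio (CTP1 and ORT1), 1 on xylulose (ORT1) and 0 on glucose.

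Set against the wild type on xylulose alone, ORT1 was lower in the evolved populations. Its level of 157 ± 58.2 RPM in the wild type strains (SD, n = 12) compares with 71.0 ± 26.5 in the evolved populations, a log2 ratio of -1.12 (SE 0.24, adjusted p = 0.0474, lower in 10 of 12). ORT1 was the 1 carrier of 9 called lower, where 0.858% of all genes were called lower and 0% higher (limma, 0 genes higher at adjusted p under 0.05 against 263 at an unadjusted p under 0.05). The call as labelled was lost in the 10 fits that left out any strain other than 9 or 10 (adjusted p up to 0.125) and without the 4 populations with raised chromosome XV (-0.93, adjusted p = 0.970). With the numbers exchanged ORT1 had an adjusted p of 0.00805, and 3 of the 9 carriers were called lower, where 3.57% of all genes were. ODC2 had a log2 ratio of -0.95 (SE 0.32 and adjusted p = 0.211 as labelled, SE 0.18 and adjusted p = 0.00972 exchanged). As labelled it passed without strain 10 (adjusted p = 0.0144). OAC1 had a log2 ratio of -0.59 (SE 0.33 and adjusted p = 0.454 as labelled, SE 0.15 and adjusted p = 0.0310 exchanged, lower in 10 of 12). ORT1 and ODC2 lie on chromosome XV, whose genes stood higher and not lower in the populations named above. The part of this in their ratios was not tested.

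The spread between strains depended on the pairing. On xylulose the SD of the evolved/wild type ratio was smaller with the numbers exchanged for 8 of the 9 carriers, falling from 1.30 to 0.52 for OAC1 and from 1.26 to 0.70 for ODC2. The shift between ODC2 and ODC1 on xylulose was -1.27 under both pairings, with SD 1.80 and adjusted p = 0.0553 as labelled (exact permutation of signs). As labelled it passed without strain 10 (-1.67, adjusted p = 0.00488) and in no other fit that left out a strain. Exchanged, the SD was 0.68 and the shift was below 0 in 12 of 12 (p = 0.000488 by the exact permutation of signs, its lowest possible value, and 0.00146 adjusted). CRC1 had a mean of -0.94 (adjusted p = 0.413 as labelled and 0.184 exchanged), with its lowest value, -4.57, in strain 1 under both pairings and its highest at 1.84 (strain 11) as labelled and 0.79 (strain 10) exchanged. MIR1 had a mean of 0.15 (adjusted p = 0.476 as labelled and 0.278 exchanged).

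**Figure D4:**
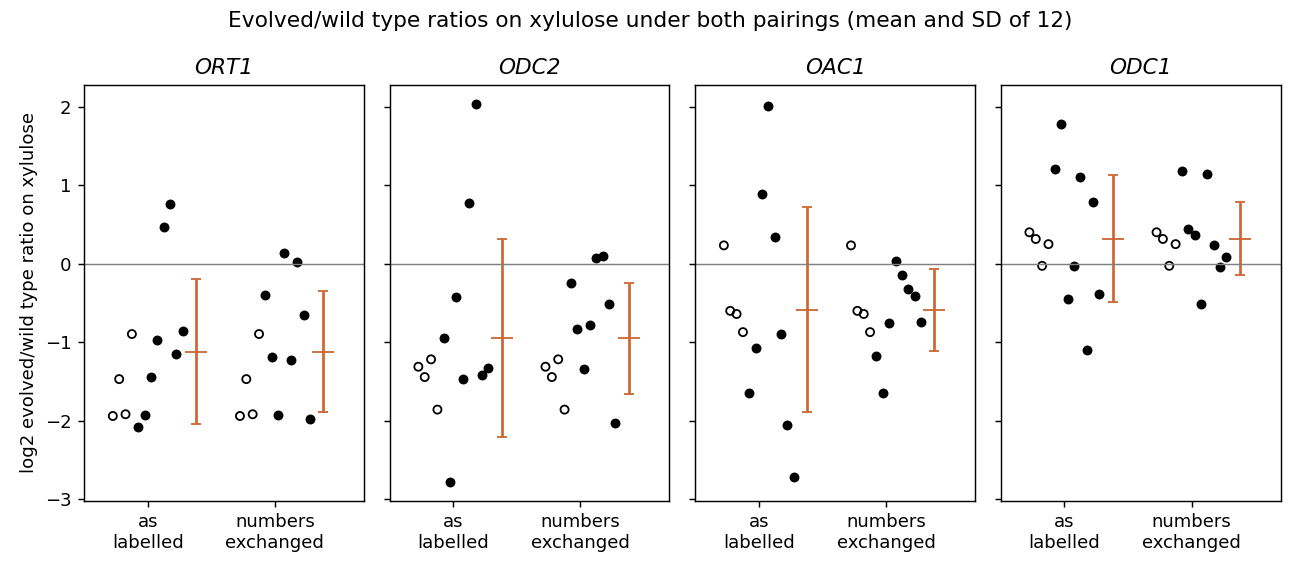
Log2 evolved/wild type ratio on xylulose of ORT1, ODC2, OAC1 and ODC1 for the 12 strain numbers, with evolved numbers as labelled and with 5 to 8 exchanged with 9 to 12. Open points are numbers 1 to 4, which are the same in both; the orange mark and bar are the mean and SD of 12. The means do not move, and the SD of OAC1 falls from 1.30 to 0.52.

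On glucose 0 of the 9 carriers passed as different between evolved populations and wild type strains by limma, where 2.16% of all genes were called higher and 0.0585% lower, and 0 of the 9 with the numbers exchanged (3.08% and 0.253% of all genes). At an unadjusted p under 0.05 there was 1 carrier, CTP1, under both pairings. Its level of 37.8 RPM in the wild type strains and 64.8 in the evolved populations (means of 12, blank at 10) gave a log2 ratio of 1.04 (SE 0.32, adjusted p = 0.0957, higher in 10 of 12, and 0.0627 exchanged). The other carriers had mean log2 ratios between -0.05 (CRC1) and 0.46 (DIC1), and the median of all genes was 0.17.

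Other members of the carrier family changed in both directions. The 25 tested include ANT1 of the peroxisomal membrane and UGO1 of the outer mitochondrial membrane. In the wild type strains 12 were called higher and 2 lower on xylulose (30.4% and 9.42% of all genes), with a median log2 ratio of 0.65. Those with the largest fitted changes were SFC1, the succinate-fumarate carrier (4.02), GGC1 (2.68) and AAC3, the ADP/ATP carrier of anaerobic growth (-2.44). SFC1 was blank in 9 of 12 wild type and 11 of 12 evolved columns on glucose, and AAC3 in 12 of 12 wild type and 11 of 12 evolved columns on xylulose, so the sizes of their ratios depend on the floor of 10 RPM and cannot be ranked against those of the others. In the evolved populations 13 were called higher and 3 lower (24.1% and 15.6% of all genes), among them SFC1 (3.90), PET9, the main ADP/ATP carrier (2.35), and AAC3 (-1.65). The ratio was called lower after evolution for 1 of the 25, or 4%, beside 4.95% of all genes, and this was YMC1 (-1.35, SE 0.31, adjusted p = 0.0114 as labelled and 0.00438 exchanged). With the numbers exchanged 2 of the 25 were called lower, YMC1 and YMC2, beside 7.35% of all genes. As labelled 0 of the 25 were called between evolved and wild type on either sugar by limma, where 4 on xylulose and 1 on glucose had an unadjusted p under 0.05. With the numbers exchanged 3 were called lower on xylulose (GGC1, YMC1 and YMC2, beside 3.57% of all genes) and 0 on glucose. Of 9 enzymes that make or use the carried acids, 9 were called higher on xylulose in the wild type strains and 8 in the evolved populations, with IDP2, the cytosolic isocitrate dehydrogenase, at 4.10 and 4.13. Of these 9, 1 was called lower after evolution in its ratio, IDP1, the mitochondrial isocitrate dehydrogenase (-0.78, SE 0.23, adjusted p = 0.0461 as labelled and 0.0389 exchanged).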

How the data were processed

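RNA was fragmented, then polyA selected, tagged with molecular barcodes and sequenced as 50 base single reads. The authors aligned the reads with Bowtie to the R64 assembly of S288c, discarded rRNA reads, counted each barcode once, scaled every sample to the same total (RPM), averaged 2 repeats and deposited log2 RPM. Values below 10 RPM were blank (84458 of 321648 cells). Column sums were 888352 to 1005807 RPM, and read totals are unknown, so no counting error is given. The columns held 3935 to 5342 genes with a value. Whether counting used strand is not given in the sources used here, and the convergent neighbours of CTP1 and ODC2 lie 116 and 72 bases away.

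Blanks were set to 10 RPM. For each comparison limma 3.58.1 (R 4.3.3, lmFit and eBayes with trend) was run on 12 differences of log2 values per gene, over the 5129 genes whose mean, blanks as 0, was 10 RPM or more, with Benjamini-Hochberg adjustment over them and a threshold of 0.05. The strain number paired the columns, since the labels give the same strain. Same-numbered columns deviated together (correlation over 0.1) in 7 of 12 wild type and 10 of 12 evolved pairs of sugars, and in 3 of 12 pairs of wild type and evolved on xylulose and 2 of 12 on glucose. The ODC2 and ODC1 ratios were compared by an exact sign-flip permutation test. The fit was tested on simulated data with 200 changed genes. Promoters were read from the R64 genome, as no promoter table was used. Named genes were the 9 carriers, the 3 most changed of the other carriers and the 1 most changed of each other list among those called, and the 3 genes most correlated with each carrier among those with a value in at least 36 columns. The carriers and lists were chosen with earlier results of these data known, and 1 gene of the arginine list is not reported here. Alternatives were median-of-ratios scaling, pseudocounts of 1 and 10, other filters, no pairing, exchanged evolved numbers, leaving out each strain and leaving out populations with raised chromosome XV on both sugars. That was population 3 alone, so this last fit repeats the one without strain 3. Fits that left out strains or populations used the numbers as labelled only. They dropped the evolved and wild type columns of a number together. Leaving blanks missing, and leaving out the 4 populations over 0.3 on xylulose for chromosome XV, were added after seeing the data.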

Additional observations from a re-analysis of the deposited data

Results flagged for a closer look

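For 14 of the 48 genes named above, the xylulose/glucose log2 ratio differed between wild type strains and evolved populations by a test of the difference itself (limma, as labelled). Of the 9 carriers these were CTP1 (-1.34, adjusted p = 0.0144) and ORT1 (-1.47, adjusted p = 0.00541), and of the other family members YMC1 (-1.35, adjusted p = 0.0114). From the pathway lists they were ARG4 (-2.64), LYS1 (-2.58), LYS20 (-2.08), LYS2 (-1.23), LYS9 (-0.96), LEU4 (-1.34), LEU1 (-0.92), YAT2 (-1.22, adjusted p = 0.0428) and IDP1 (-0.78, adjusted p = 0.0461). Among genes named for a pattern similar to a carrier they were YHI9 (-2.40, adjusted p = 0.000162) and ISU2 (-1.13, adjusted p = 0.0251). All 14 changes were negative, the median change of all genes was -0.20, and 13 of the 14 were also called with the numbers exchanged, YAT2 not (adjusted p = 0.0646). Over all genes 4.95% were called lower and 0.487% higher. Some of the 48 were named as the most changed of those called in this comparison, so the count of 14 was partly fixed beforehand.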

How the results depend on the processing

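Of 965 values of a carrier under an alternative, 920 kept their direction and side of the threshold, 11 gained and 21 lost a call, and 13 changed sign, none of the 13 called. The cause of these differences was not tested, beyond fewer genes or fewer strains where the alternative itself removes them. The cutoff of 10 RPM limits what can be read for low genes, since a blank hides any level below it.

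With only genes that had a value in every column, 2528 genes and 5 of the carriers (MIR1, DIC1, OAC1, YHM2 and ODC2) were tested. In the wild type strains 798 genes and 5 of these 5 carriers were called higher on xylulose, OAC1 among them (adjusted p = 0.0478). In the evolved populations 737 genes and 3 of the 5 were called higher, those called over all genes as well (MIR1, YHM2 and ODC2), and 449 genes lower. With a minimum mean of 50 RPM 521 genes were called lower in the evolved populations.

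For the change of the ratio, the genes called higher were 10 with a pseudocount of 1, 7 with no filter on low genes, 77 with exchanged numbers, 5 without population 3 and 0 without the 4 populations with raised chromosome XV. The genes called lower were 166 with a pseudocount of 1, 84 with values in every column, 53 without those 4 populations and 129 with blanks left missing. The carriers called lower were 1 with a pseudocount of 1, 0 with values in every column (CTP1 and ORT1 were not then tested), 4 with exchanged numbers and 0 without the 4 populations. MIR1 changed sign without the 4 populations (-0.013) and ODC1 with a pseudocount of 1 (-0.085). The shift between ODC2 and ODC1 (-1.30) passed with exchanged numbers (exact permutation, adjusted p = 0.00879).

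Evolved against wild type on xylulose, 1 gene was called higher with median-of-ratios scaling, with a minimum mean of 50 RPM and with values in every column, and 52 with exchanged numbers. Genes called lower were 1 with no filter, 183 with exchanged numbers, 1 without population 3 and 0 without the 4 populations. Carriers called lower were 0 with a pseudocount of 1, with no filter, with values in every column (ORT1 was not then tested), without population 3 and without the 4 populations, and 3 with exchanged numbers. YHM2 changed sign without the 4 populations (0.10), and the shift between ODC2 and ODC1 (-1.27) passed with exchanged numbers (adjusted p = 0.00146). On glucose, genes called higher were 49 with a minimum mean of 50 RPM, 9 with values in every column, 38 without the 4 populations and 37 with blanks left missing. Genes called lower were 5 with median-of-ratios scaling, 13 with exchanged numbers and 5 without population 3. CRC1 changed sign with pseudocounts of 10 (0.032) and 1 (0.24), ODC1 with blanks left missing (-0.021), and the shift between ODC2 and ODC1 with pseudocounts of 10 (-0.048) and 1 (-0.26).

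Without the replicate block, that is with no paired differences, 7 genes were called higher and 162 lower for the change of the ratio, 1 higher and 80 lower on xylulose and 5 lower on glucose, and the calls of the 9 carriers did not change in any comparison.

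Leaving out 1 strain at a time, the shift between ODC2 and ODC1 ranged over -1.39 to -0.85 in the wild type strains, -1.83 to -0.88 for the change of the ratio, -1.67 to -0.97 on xylulose and -0.10 to 0.26 on glucose. Genes called higher ranged over 5 to 33 for the change of the ratio, 0 to 10 on xylulose and 60 to 121 on glucose, and genes called lower over 1 (without strain 1) to 90 (without strain 9) on xylulose and 1 to 8 on glucose. Carriers called lower on xylulose ranged over 0 to 2. MIR1 ranged over -0.11 to 0.20 for the change of the ratio and -0.014 to 0.24 on glucose, and CRC1 over -0.16 to 0.084 on glucose.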
